A study of Mus musculus with 6 samples.

Results

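The 5 genes of the NF-kB and Rel subunits (Rela, Rel, Relb, Nfkb1 and Nfkb2) and 5 genes of their inhibitors and feedback regulators (Nfkbia, Nfkbib, Nfkbie, Nfkbiz and Tnfaip3) were examined in LPS-treated macrophages with or without knockdown of PGAM5. The 10 genes were chosen by name and role, with earlier results of these data known. All 10 were found among the 54532 genes listed, and all 10 were among the 10540 genes expressed highly enough to be tested. RNA was measured by RNA-seq in iBMDMs, which are bone marrow-derived macrophages of the mouse immortalized with retroviruses that carry v-raf and v-myc. Control iBMDMs expressed a control shRNA and PGAM5 KD iBMDMs expressed an shRNA against Pgam5, which encodes a phosphatase of the outer mitochondrial membrane, and lentiviruses are the study's vehicle for shRNA. Both groups, with 3 libraries each, received LPS at 100 ng/ml for 4 hours, so the values compare 2 LPS-treated groups and measure no induction over untreated cells. Each group is an immortalized line with 1 shRNA label, so effects of the knockdown and of the line or the shRNA itself cannot be told apart. Whether replicates were separate cultures is not given, and p-values then measure only the spread between these libraries, which may be technical.

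NF-kB is a family of dimeric transcription factors that waits in the cytoplasm of resting macrophages, bound to IkB proteins. LPS is recognized by TLR4, whose adaptors activate the IKK complex, and IKK phosphorylates the IkB proteins so that they are degraded and the dimers enter the nucleus. Several of the genes that NF-kB switches on encode its own subunits and inhibitors, so the pathway contains feedback loops. These steps act largely on proteins, which RNA-seq does not measure.

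Sequences are shown first, because several members are known targets of NF-kB and the letters upstream of their start sites bear on how alike the members are. Promoters of 7 of the 10 members were found in RefSeq (GRCm38.p6), with 10 start sites among them. The 250 bases upstream of each start site were searched on both strands for a form of the kB motif that NF-kB dimers bind (GGG, any 2 bases, then TTTCC) and for a looser form (GGG, any 3 bases, then TTCC) that includes every match of the first. These forms were settled on after other forms had been looked at. The stricter form was present in 1.41% of all 32851 upstream windows, and in 5 of the 10 windows of the members, which belong to Nfkbia, Nfkb2, Rel and Tnfaip3. The looser form was present in 4.65% of all windows and in 8 of the 10 windows of the members, and Nfkbie was the only member it added. No match was found in the windows of Rela and Nfkbib, and Nfkb1, Relb and Nfkbiz were not matched to a promoter. The whole 250 bases are given for Nfkbia and Nfkbie, the pair of classical inhibitors that moved in opposite directions, followed by stretches of at most 30 bases around the matches of the stricter form in Rel, Tnfaip3 and Nfkb2. Further matches of the looser form alone, 1 at another start site of Tnfaip3 and 2 of Nfkb2, are not shown. All are written 5′ to 3′ on the strand of the gene, and capitals mark the matched letters, which for Nfkbia, Rel and Tnfaip3 are the reverse complement of the motif.
Nfkbia, chr12:55492648-55492897, minus strand: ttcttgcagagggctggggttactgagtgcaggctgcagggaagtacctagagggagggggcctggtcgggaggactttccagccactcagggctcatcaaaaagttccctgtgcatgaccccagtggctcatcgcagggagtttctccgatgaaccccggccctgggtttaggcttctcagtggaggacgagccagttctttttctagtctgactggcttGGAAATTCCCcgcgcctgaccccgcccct
Nfkbie, chr17:45555450-45555699, plus strand: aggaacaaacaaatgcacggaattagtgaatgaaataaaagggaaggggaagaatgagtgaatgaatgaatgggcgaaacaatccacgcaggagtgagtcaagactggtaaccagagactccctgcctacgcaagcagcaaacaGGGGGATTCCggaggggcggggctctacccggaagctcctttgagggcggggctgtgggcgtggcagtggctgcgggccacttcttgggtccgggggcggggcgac
Rel, chr11:23771041-23771070, minus strand: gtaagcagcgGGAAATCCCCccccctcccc
Tnfaip3, chr10:19015411-19015432, minus strand: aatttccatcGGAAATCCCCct
Nfkb2, chr19:46304716-46304736, plus strand: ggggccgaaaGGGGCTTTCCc
Nfkb2, a second start site, chr19:46305695-46305724, plus strand: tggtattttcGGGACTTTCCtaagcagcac
The match of Nfkbia ended 20 bases before its start site, that of Tnfaip3 3 bases before it, and that of Nfkbie 97 bases before it. The start sites used for the printed matches of Tnfaip3 and Nfkb2 lie inside the gene coordinates given below, and so do these matches. Members with a match of the stricter form thus included Nfkbia, which was higher in PGAM5 KD cells, and 3 genes whose difference did not pass the test. A match describes the letters only, and binding was not measured here.

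The depth recovered from the values was between 18163463 and 24388917 fragments per library. FPKM, the fragments on a gene scaled to its exon length and to the depth of the library, was summed over all genes to between 304393 and 304889 in Control libraries and to between 317936 and 324298 in PGAM5 KD libraries, and scaling to TPM, which gives every library the same total, removes this difference. Pgam5 itself was 17.1, 13.0 and 13.4 FPKM in Control libraries and 4.33, 5.75 and 4.53 FPKM in PGAM5 KD libraries, with no overlap between the groups. It shares 1378 bases of exon with Gm26718 on the opposite strand, which was at 0 FPKM in both groups. Of 10 macrophage markers, 9 were at a mean of 1 FPKM or more and Mertk was listed at 0 in all 6 libraries. The macrophage markers summed to between 2987 and 3073 FPKM in Control libraries and to between 2700 and 2729 FPKM in PGAM5 KD libraries, a sum that is largely Lyz2 (1666 to 1265 FPKM on average). Of the 9 markers tested, Lyz2, Csf1r (-0.64) and Cd68 (-0.20) were lower on the log2 scale, while Fcgr1 (1.51), Adgre1 (0.85), Itgam (0.68) and Cd14 (0.56) were higher. Markers of neutrophils, lymphocytes, fibroblasts and dendritic cells summed to at most 0.328, 0.211, 0.0168 and 0.613 FPKM in any library, with Ly6g, Cd3e, Col1a2 and Flt3 among those listed at 0.

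Nfkbia, Nfkbiz and Nfkbie differed most between the groups. The former pair was higher in PGAM5 KD cells and Nfkbie was lower, by between 34% and 52% of the Control mean. Of the subunits, only Rela passed the test, with a smaller difference that depended on the analysis. The test was limma on log2(FPKM + 1) over all 10540 genes, with an adjusted p under 0.05 as the threshold, and 3 of 10 members passed as higher and 1 of 10 as lower. Over all genes tested, 16.8% were higher and 14.9% were lower. When the libraries were scaled to TPM, 2 members were higher and 2 were lower, and the calls over all genes went from 1771 higher and 1575 lower to 1088 higher and 2282 lower. None of the 10 members had an absolute log2 fold change above 1 together with an adjusted p under 0.05, against 1.32% of all genes tested. The libraries of the groups did not overlap for 5 of 10 members, against 47.1% of all genes tested. The median log2 fold change was 0.0029 over the members and 0.013 over all genes tested. Log2 fold changes below are those of FPKM + 1 in PGAM5 KD over Control, which understates the change of genes at low FPKM.

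**Figure D1:**
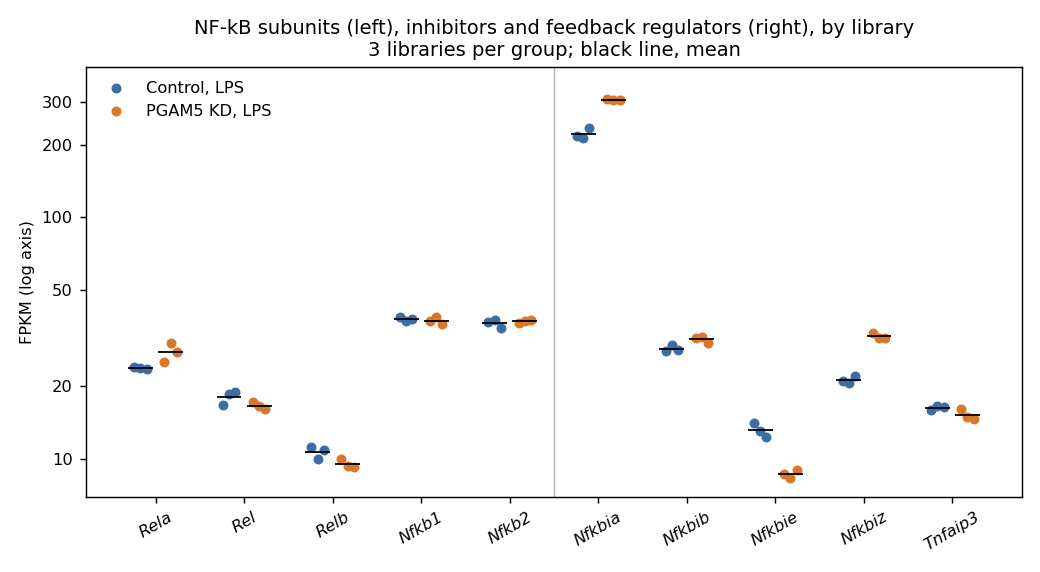
Expression of the 10 members in each library, in FPKM on a log axis, with Control libraries in blue, PGAM5 KD libraries in orange and the mean of 3 libraries as a black line. Nfkbia, Nfkbiz and Nfkbie stand apart between the groups, while the points of Nfkb1 and Nfkb2 overlap.

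Rela encodes p65, the subunit with a transactivation domain that pairs with p50 in the most common NF-kB dimer of macrophages. Rela (ENSMUSG00000024927), on the plus strand of chromosome 19 from 5637483 to 5648130 (GRCm38), was 24.0, 23.7 and 23.6 FPKM in Control libraries and 25.3, 30.2 and 27.7 FPKM in PGAM5 KD libraries. The lowest PGAM5 KD library lay above the highest Control library, and the PGAM5 KD libraries lay farther from each other than the Control libraries did. The means were 23.8 ± 0.193 and 27.8 ± 2.44 FPKM (SD, n = 3), which is 16.6% higher in PGAM5 KD cells. Rela had a log2 fold change of 0.21 (standard error 0.06, 95% interval 0.061 to 0.36, adjusted p = 0.0419 from limma). The coefficient of variation was 0.809% in Control and 8.78% in PGAM5 KD libraries, where counting error alone would give 2.66% and 2.34%. Rela had between 1340 and 2077 fragments per library. The call held in 6 of 16 alternative fits. The adjusted p from limma was 0.0887, 0.1004 and 0.104 without Control replicates 1, 2 and 3, 0.0942 and 0.102 without PGAM5 KD replicates 2 and 3, and 0.0117 without PGAM5 KD replicate 1. Scaled to TPM, the log2 fold change was 0.14 (adjusted p = 0.123 from limma).

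Rel encodes c-Rel, a transactivating subunit abundant in cells of the blood lineages. Rel (ENSMUSG00000020275, chromosome 11, minus strand, 23736847 to 23770970) was 16.8, 18.7 and 19.0 FPKM in Control libraries and 17.3, 16.6 and 16.1 FPKM in PGAM5 KD libraries. Control replicate 1 fell among the PGAM5 KD libraries, so the groups overlapped. The log2 fold change was -0.11 (standard error 0.06, 95% interval -0.25 to 0.021, adjusted p = 0.173 from limma), and no alternative fit brought it past the threshold. Relb encodes RelB, the partner of p52 in the noncanonical branch. Relb (ENSMUSG00000002983, chromosome 7, minus strand, 19606217 to 19629438) was 11.2, 10.0 and 10.9 FPKM in Control libraries and 10.1, 9.40 and 9.29 FPKM in PGAM5 KD libraries. Control replicate 2 and PGAM5 KD replicate 1 were close to each other, and the other libraries were separated. Relb had a log2 fold change of -0.15 (standard error 0.06, 95% interval -0.29 to -0.0079, adjusted p = 0.101 from limma). Scaled to TPM it was -0.23 and passed (adjusted p = 0.0341 from limma).

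Nfkb1 and Nfkb2 encode the precursors p105 and p100, which carry an IkB-like domain of their own and are processed to the DNA-binding subunits p50 and p52. They were the most highly expressed subunits in both groups on the FPKM scale. Nfkb1 (ENSMUSG00000028163, chromosome 3, minus strand, 135584655 to 135691547) was 38.6, 37.2 and 37.9 FPKM in Control libraries and 37.4, 38.6 and 36.4 FPKM in PGAM5 KD libraries. Nfkb2 (ENSMUSG00000025225, chromosome 19, plus strand, 46304320 to 46312385) was 37.1, 37.7 and 34.9 FPKM in Control libraries and 36.4, 37.4 and 37.6 FPKM in PGAM5 KD libraries. For both genes the groups were interleaved. The log2 fold change of Nfkb1 was -0.016 (95% interval -0.10 to 0.072, adjusted p = 0.771 from limma) and that of Nfkb2 was 0.022 (95% interval -0.074 to 0.12, adjusted p = 0.713 from limma). The sign of Nfkb2 turned negative under TPM, quantile normalization and the removal of Control replicate 3, and that of Nfkb1 turned positive without PGAM5 KD replicate 3. Nfkb2 shares 531 bases of exon with AC114539.1, which was not analysed here, and 299 bases with Psd, both on the opposite strand, and Psd was 2.33 FPKM in Control and 1.53 FPKM in PGAM5 KD cells. Reads of these genes cannot be told from Nfkb2 reads in the overlaps if the libraries did not keep strand, which the labels do not settle.

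**Figure D2:**
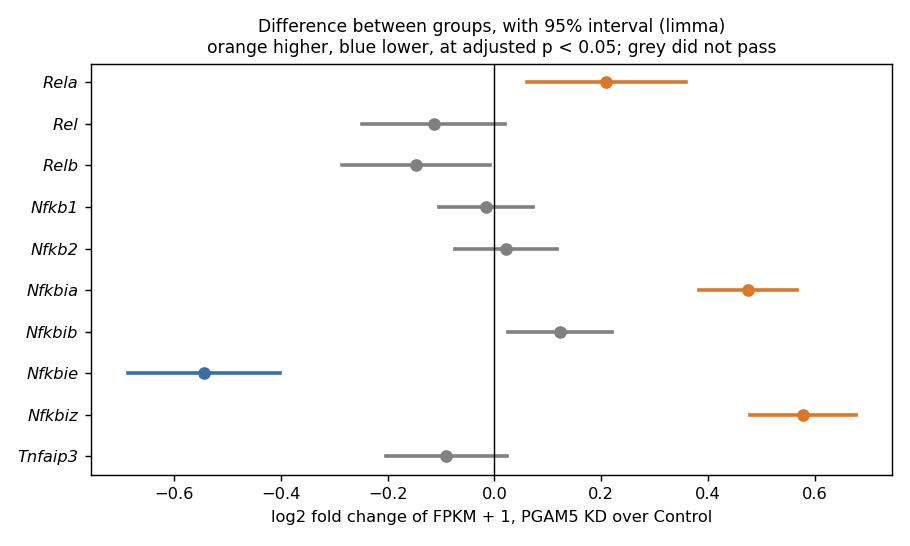
Log2 fold change of FPKM + 1 in PGAM5 KD over Control for each member, with its 95% interval from limma, orange for higher and blue for lower at an adjusted p under 0.05 and grey for those that did not pass. The intervals of Nfkbia, Nfkbiz and Nfkbie lie far from 0, and that of Rela starts at 0.061.

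Nfkbia encodes IkB-alpha, the inhibitor that is degraded first after LPS and made anew as an NF-kB target, which ends the first wave of nuclear NF-kB. Nfkbia (ENSMUSG00000021025, chromosome 12, minus strand, 55489410 to 55492647) was 217, 212 and 233 FPKM in Control libraries and 308, 306 and 306 FPKM in PGAM5 KD libraries. It was the most highly expressed member in every library, and the PGAM5 KD libraries lay close together and above all Control libraries. The means were 221 ± 11.1 and 307 ± 0.973 FPKM (SD, n = 3), which is 39.0% higher in PGAM5 KD cells. The log2 fold change was 0.47 (standard error 0.04, 95% interval 0.38 to 0.57, adjusted p = 0.000234 from limma). The call held in 16 of 16 alternative fits, and the log2 fold change ranged from 0.45 to 0.51 over the 6 fits with 1 library removed. It was lowest, at 0.38, under quantile normalization. Nfkbia had between 6332 and 12021 fragments per library, and the exact permutation p was 0.1, the smallest that 3 libraries against 3 allow.

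Nfkbib encodes IkB-beta, which binds Rela and Rel dimers and is degraded more slowly. Nfkbib (ENSMUSG00000030595, chromosome 7, minus strand, 28758251 to 28767512) was 28.0, 29.6 and 28.4 FPKM in Control libraries and 31.6, 32.1 and 30.2 FPKM in PGAM5 KD libraries. All PGAM5 KD libraries were above all Control libraries, but by little. The log2 fold change was 0.12 (standard error 0.04, 95% interval 0.025 to 0.22), which missed the threshold (adjusted p = 0.0609 from limma). Centring each library on its median gave 0.13 and an adjusted p from limma of 0.0499. Scaling to TPM gave a log2 fold change of 0.047. Nfkbib shares 314 bases of exon with Ccer2 and 42 bases with Sirt2, both on the opposite strand, and Ccer2 was at most 0.104 FPKM on average in either group while Sirt2 was 8.14 FPKM in Control and 8.62 FPKM in PGAM5 KD cells.

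Nfkbie encodes IkB-epsilon, an inhibitor of Rela and Rel dimers that is resynthesized later than IkB-alpha. Nfkbie (ENSMUSG00000023947, chromosome 17, plus strand, 45555703 to 45563169) was 14.1, 13.1 and 12.3 FPKM in Control libraries and 8.73, 8.34 and 9.02 FPKM in PGAM5 KD libraries. The groups did not overlap, with all PGAM5 KD libraries low. The means were 13.1 ± 0.879 and 8.69 ± 0.344 FPKM (SD, n = 3), a change of -33.9%. Nfkbie had a log2 fold change of -0.54 (standard error 0.06, 95% interval -0.69 to -0.40, adjusted p = 0.000859 from limma). Nfkbie had between 461 and 803 fragments per library, and its call held in 16 of 16 alternative fits with a log2 fold change from -0.59 to -0.50 over the 6 fits with 1 library removed.

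Nfkbiz encodes IkB-zeta, a nuclear IkB protein that is induced by LPS and that the transcription of a set of secondary response genes needs. Nfkbiz (ENSMUSG00000035356, chromosome 16, minus strand, 55811375 to 55838899) was 21.01, 20.7 and 22.1 FPKM in Control libraries and 33.2, 31.7 and 31.8 FPKM in PGAM5 KD libraries. The groups were well apart, and the libraries within each group were close. The means were 21.3 ± 0.741 and 32.2 ± 0.857 FPKM (SD, n = 3), a ratio of 1.52. Nfkbiz had a log2 fold change of 0.58 (standard error 0.04, 95% interval 0.48 to 0.68, adjusted p = 0.000146 from limma). This was the largest log2 fold change in size among the members, it exceeded in size that of 93.3% of all genes tested, and the call held in 16 of 16 alternative fits. Scaled to TPM, Nfkbie had a larger log2 fold change in size (-0.65) than Nfkbiz (0.52).

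Tnfaip3 encodes A20, a ubiquitin-editing enzyme that limits signaling upstream of IKK. Tnfaip3 (ENSMUSG00000019850, chromosome 10, minus strand, 19000910 to 19015657) was 15.97, 16.6 and 16.5 FPKM in Control libraries and 16.1, 15.0 and 14.7 FPKM in PGAM5 KD libraries. PGAM5 KD replicate 1 fell among the Control libraries. The log2 fold change was -0.09 (standard error 0.05, 95% interval -0.20 to 0.023, adjusted p = 0.196 from limma), and no alternative fit brought it past the threshold. Like Nfkbia and Nfkbiz, Tnfaip3 is known as a gene that NF-kB induces, but its difference between the groups was not tested against theirs.

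The order of the members by mean FPKM was compared within each group. In Control cells it was Nfkbia, Nfkb1, Nfkb2, Nfkbib, Rela, Nfkbiz, Rel, Tnfaip3, Nfkbie and Relb, and only Nfkb1 and Nfkb2 had overlapping libraries among neighbours. In PGAM5 KD cells Nfkbiz moved above Nfkbib and Rela, but its libraries overlapped those of Nfkbib, which in turn overlapped those of Rela, and Nfkb1 and Nfkb2 overlapped again. Nfkbie went from above Relb in Control libraries to below it in PGAM5 KD libraries, with no overlap between these neighbours in either group.

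The subunits together were 127.1 ± 0.665 FPKM (SD, n = 3) in Control cells and 128.6 ± 3.13 FPKM (SD, n = 3) in PGAM5 KD cells. Nfkbia, Nfkbib and Nfkbie together were 262 ± 10.0 and 347 ± 1.41 FPKM. The ratio of these inhibitors to the subunits was 2.03, 2.00 and 2.17 in Control libraries and 2.75, 2.62 and 2.72 in PGAM5 KD libraries. Every PGAM5 KD library had a higher ratio than every Control library, and since both sums come from the same library, depth does not enter the ratio. The share of Nfkbia in the inhibitor sum was 84.0% in Control and 88.5% in PGAM5 KD cells, and that of Nfkbie was 5.02% and 2.51%. Nfkbia was thus 15.4, 16.2 and 18.9 times Nfkbie in Control libraries and 35.3, 36.7 and 33.9 times in PGAM5 KD libraries. Within the subunits, the share of Rela was 18.7% ± 0.0797 in Control and 21.6% ± 1.43 in PGAM5 KD cells (SD, n = 3), that of Rel was 14.3% and 13.0%, and that of Relb was 8.44% and 7.46%. These sums and shares restate the members' values and were not tested.

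**Figure D3:**
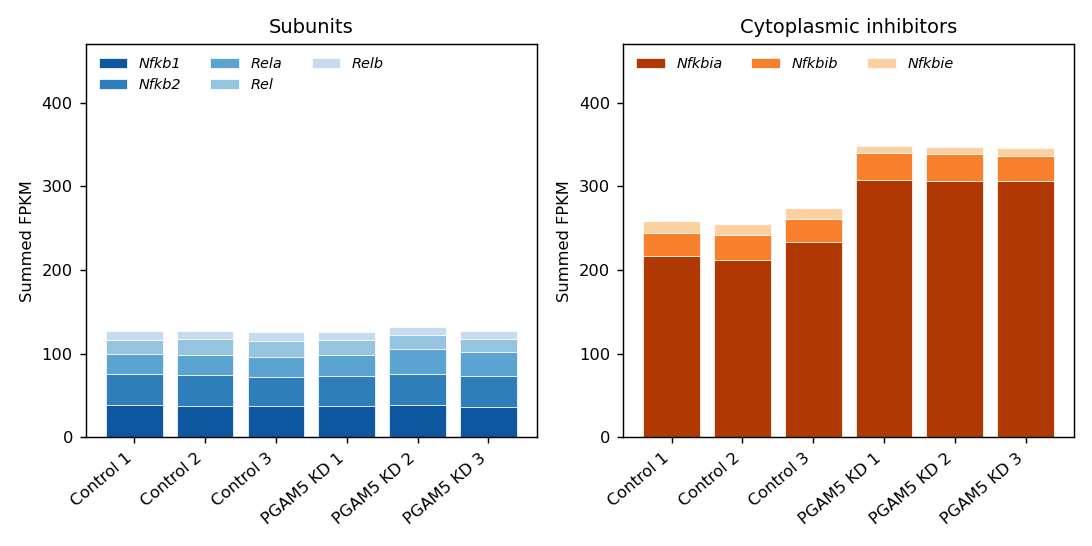
Summed FPKM of the subunits (left) and of the 3 cytoplasmic inhibitors (right) in each library, with the parts of each gene stacked. The subunit sums are level across the 6 libraries, while the inhibitor sums are 255 to 274 FPKM in Control and 345 to 348 FPKM in PGAM5 KD libraries, most of it Nfkbia.

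The other genes of the pathway were set beside the members, by lists ordered from the receptor to the targets. Over all genes tested 31.7% passed in either direction, with a median log2 fold change of 0.013. Of 18 receptor-proximal adaptors and ubiquitin ligases, 17 were tested, 2 were higher and 2 were lower, with a median of -0.039. Irak3, which encodes IRAK-M, an inhibitor of the receptor complex, went from 9.65 to 19.5 FPKM (log2 fold change 0.94, adjusted p = 0.000151 from limma). Irak2, a kinase that sustains TLR signaling, went from 17.6 to 13.9 FPKM (-0.32, adjusted p = 0.00543 from limma). Both held in 16 of 16 alternative fits, and Irak3 shares 192 bases of exon with Tmbim4, and Irak2 196 bases with Gm43963, on the other strand. Ticam1, which encodes the adaptor TRIF, was 0.25 higher (adjusted p = 0.0239 from limma), but the adjusted p was 0.0607 and 0.0585 without Control replicates 2 and 3, and 0.0510 and 0.0780 without PGAM5 KD replicates 1 and 3. Traf3, named after its value was seen, was -0.17 (adjusted p = 0.0489 from limma), and the adjusted p was between 0.0715 and 0.137 without any 1 of 5 libraries and 0.0295 without PGAM5 KD replicate 1. Scaled to TPM, 1 gene of this list was higher and 4 were lower.

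Of the 13 genes of the IKK and TAK1 kinase complexes, all tested, 1 was higher and none was lower, with a median log2 fold change of -0.027. The gene that passed was Azi2, which encodes a regulator of the IKK-related kinase TBK1 (11.5 to 13.5 FPKM, 0.21, adjusted p = 0.0169 from limma), and its adjusted p was 0.0544 without Control replicate 1 and 0.0569 without PGAM5 KD replicate 3. Map3k14, which encodes the kinase NIK of the noncanonical branch, named after its value was seen, had the largest log2 fold change of the list (3.54 to 4.81 FPKM, 0.35) and just missed the threshold (adjusted p = 0.0502 from limma), with no overlap between the groups. With a pseudocount of 0.1, median centring or voom, 2 genes of the list were higher, and 1 was lower with voom and without the mean-variance trend. Chuk and Ikbkb, the catalytic subunits of IKK, named after their values were seen, did not pass (log2 fold changes 0.05 and -0.17). Scaled to TPM, none was higher and 4 were lower. Of the 14 genes of the linear ubiquitin ligase, deubiquitinases and partners of A20, all tested, none was higher and 1 was lower, with a median of 0.035. That gene was Spata2, which encodes a partner of the deubiquitinase CYLD (6.96 to 5.63 FPKM, -0.27, adjusted p = 0.0157 from limma). Its adjusted p was 0.0544 without Control replicate 3 and 0.0505 without PGAM5 KD replicate 2, and it shares 129 bases of exon with Rnf114.

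Of 9 genes of other IkB-like proteins and nuclear regulators, 8 were tested, 3 were higher and 1 was lower, with a median of 0.053. The atypical IkB proteins moved in different directions. Bcl3, which encodes a nuclear partner of p50 and p52 dimers, was 15.4, 13.8 and 13.7 FPKM in Control libraries and 21.4, 20.4 and 22.7 FPKM in PGAM5 KD libraries (log2 fold change 0.56, adjusted p = 0.000812 from limma). Nfkbid, which encodes the nuclear IkB-NS, was 38.9, 42.5 and 38.7 FPKM in Control libraries and 29.4, 29.7 and 33.2 FPKM in PGAM5 KD libraries (-0.37, adjusted p = 0.00459 from limma). For both genes the groups did not overlap, and 161 bases of exon of Bcl3 lie opposite Gm16175, which was below 1 FPKM in both groups. Bcl3 thus passed in the same direction as Nfkbiz, and Nfkbid in the same direction as Nfkbie. Pdlim2, which encodes a ubiquitin ligase that acts on nuclear p65, went from 3.39 to 5.65 FPKM (0.60, adjusted p = 0.00639 from limma). Nkiras2, named after its value was seen, encodes a Ras-like protein that binds IkB-beta and was 0.34 higher (adjusted p = 0.00997 from limma), and it shares 287 bases of exon with Dnajc7.

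Of 35 NF-kB target genes, 32 were tested, 19 were higher and 5 were lower, with a median log2 fold change of 0.32, and this list, like the others, was written with earlier results of these data known. Il6 and Il1a reached the mean of 1 FPKM only through the PGAM5 KD libraries and so had to differ, and without them 17 of 30 were higher, 5 were lower and the median was 0.27. Scaled to TPM, 17 of 32 were higher and 7 were lower. The cytokine gene Il6 was 0.340, 0.694 and 0.359 FPKM in Control libraries and 6.75, 7.98 and 7.41 FPKM in PGAM5 KD libraries, a log2 fold change of 2.52 that is given as a description. The paper reports less Il6 mRNA by qPCR and less IL-6 protein in LPS-treated PGAM5 KD iBMDMs than in control cells. The Il6 values here go the other way, and the reason was not tested. Il1b, which encodes the precursor of interleukin-1 beta, was 6.24, 6.73 and 6.55 FPKM in Control libraries and 33.8, 32.6 and 30.1 FPKM in PGAM5 KD libraries (2.14, adjusted p = 7.42e-06 from limma). Il1a had a log2 fold change of 2.21, likewise a description. The added 1 lowers these values for genes as low as Il6 and Il1a, whose ratios of mean FPKM were 15.9 and 9.21 and whose log2 fold changes ranged from 2.46 to 4.01 and from 2.12 to 3.20 over the alternative fits. Together with Il6, Il1b and Il1a, Ptgs2 (1.63) and Cxcl2 (1.13), named after their values were seen, make up the 5 genes of the list above 1, or 3 without Il6 and Il1a. The 5 lower genes, named after their values were seen, were Cd83 (-0.62), Malt1 (-0.28), Tlr2 (-0.23), Cflar (-0.16) and Nos2 (-0.15). Cd83 and Tlr2 held in every alternative fit. Malt1 lost its call without Control replicate 2 or 3 or PGAM5 KD replicate 3 (adjusted p from limma up to 0.0717). Nos2 lost it without Control replicate 1 or 3 or PGAM5 KD replicate 2 or 3 (up to 0.0984). Cflar, which resembles other genes over at least 200 bases, lost it without any library except PGAM5 KD replicate 1 (up to 0.0984). With the replicate block 2 of the 32 were lower.

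Of 8 genes known to need IkB-zeta, 6 were tested, 4 were higher and none was lower, with a median log2 fold change of 0.61. Without Il6, 3 of 5 were higher and the median was 0.46. Csf3, which encodes the granulocyte growth factor G-CSF, was 68.4, 65.7 and 70.1 FPKM in Control libraries and 132.8, 143.3 and 144.2 FPKM in PGAM5 KD libraries (1.03, adjusted p = 2.05e-05 from limma). Cebpd, which encodes the transcription factor C/EBP-delta, went from 22.2 to 37.96 FPKM (0.75, adjusted p = 8.84e-05 from limma), and Ebi3, which encodes a subunit of interleukin-27, from 23.6 to 32.9 FPKM (0.46, adjusted p = 0.00138 from limma). Cebpd shares 562 bases of exon with Spidr and Ebi3 shares 270 with Gm16712, both on the opposite strand. Lcn2 (0.34, adjusted p = 0.273) and Edn1 (0.11, adjusted p = 0.616) did not pass in limma, but Lcn2 did without PGAM5 KD replicate 2 (adjusted p = 0.0274). Csf2 and Il12b, the list's other genes, were at most 0.275 and 0.139 FPKM in any library and were not tested. The counts of the target and IkB-zeta lists stand beside macrophage markers that moved too, 4 of 9 tested higher and 3 lower, and the part of that in these results was not tested. In bulk RNA, fewer cells of a type and less RNA per cell cannot be told apart.

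**Figure D4:**
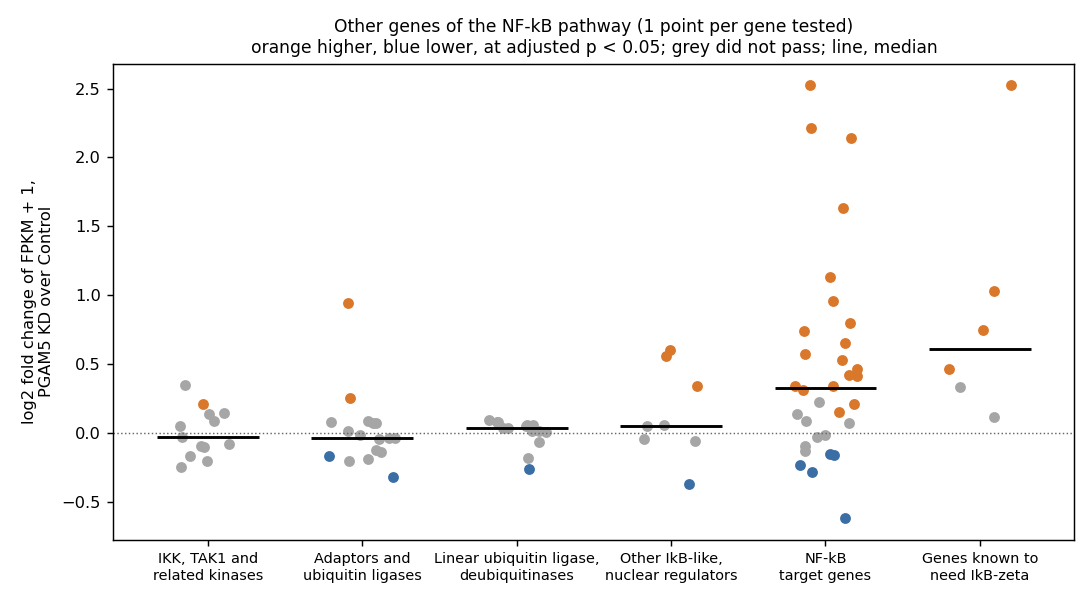
Log2 fold change of FPKM + 1 in PGAM5 KD over Control for every tested gene of the other pathway lists, orange for higher and blue for lower at an adjusted p under 0.05 in limma, with the median as a black line. The kinase, adaptor and ubiquitin lists have medians near 0, with Irak3 at 0.94 and Irak2 at -0.32, and the target list and the list of genes known to need IkB-zeta have medians of 0.32 and 0.61, or 0.27 and 0.46 without Il6 and Il1a.

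**Figure D5:**
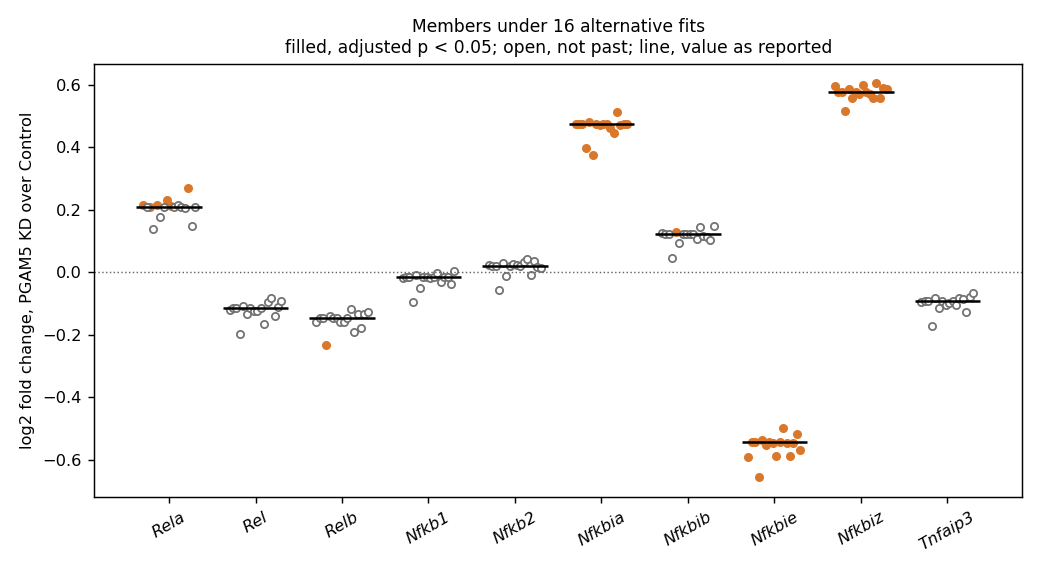
Log2 fold change of each member under 16 alternative fits, filled where the adjusted p was under 0.05 and open otherwise, with the reported value as a black line. Nfkbia, Nfkbie and Nfkbiz are filled throughout, Rela in 6 of 16 fits, and Nfkb1 and Nfkb2 lie on both sides of 0.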

How the data were processed

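RNA-seq was done on poly(A) libraries of iBMDMs, 3 Control and 3 PGAM5 KD, grouped by the labels. The authors deposited FPKM per Ensembl gene. The submitters' processing notes name HISAT2 2.0.5, featureCounts 1.5.0-p3 and the mm10 build, and strandedness is not given in the sources used here. Gene names, coordinates and exon lengths were taken from GENCODE M21 (GRCm38), which held 54495 of 54532 genes. The product of FPKM and exon length was a whole number of fragments, within 0.01, for 96.8% to 97.1% of values under 1000 fragments, which gave the depth. Count models were not used for the main test, since the deposited unit is FPKM. Replicates differed by more than sampling noise (chi-square of 5.06 to 8.92 per degree of freedom), and none was merged.

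The test was limma 3.58.1 (R 4.3.3) on log2(FPKM + 1) (two-sided, mean-variance trend, Benjamini-Hochberg adjustment) over genes with a mean of at least 1 FPKM. Exact two-sided permutation tests of single members cannot go below p = 0.1. The script was tested on simulated data. Alternatives were a pseudocount of 0.1, no filter, a mean of at least 5 FPKM, TPM, median centring, quantile normalization, no trend, array weights, voom on recovered fragments, a replicate block, and each library left out in turn. The members and lists were chosen with earlier results of these data known. Named genes are the members, Pgam5, the 3 genes of each list with the largest change past the threshold, the genes known to need IkB-zeta, genes of the cell type marker lists, and genes that overlap a named gene, and others are marked. Genes that resemble a member were searched with blastn 2.17.0 (at least 85% identity over 200 bases). Python 3.11.15 with pandas 2.3.3 was used for tables and matplotlib 3.10.9 for plots.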

Additional observations from a re-analysis of the deposited data

How the results depend on the processing

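Nfkbia, Nfkbie and Nfkbiz kept their direction and their side of the threshold in 16 of 16 alternative fits. Rela was past the threshold in 6 of 16, and the number of members higher was between 2 and 4. The number lower was 1 in 15 of 16 fits and 2 with scaling to TPM, where Relb passed. The sign of Nfkb2, which never passed, turned with scaling to TPM (-0.056) and quantile normalization (-0.012), and with 1 library removed its log2 fold change ranged from -0.0098 to 0.044. That of Nfkb1 ranged from -0.038 to 0.0040. The causes were not tested. Calls over all genes were 3346, and between 2342 and 3877 over the alternatives. Deviations of same-numbered libraries had correlations of -0.020, 0.016 and -0.052, against -0.063 to 0.081 for differently numbered ones. With 3 libraries per group this cannot show a weak shared batch, and the labels do not say what the numbers mark. With the replicate block, 2 members were higher and 1 was lower, 2652 genes passed in all, and Rela had an adjusted p of 0.0641 in limma. Genes at few fragments, such as Il6 with as few as 15 in a library, are measured less precisely than Nfkbia.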
